A study of Mus musculus with 16 samples.

Results

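The Hippo pathway was followed here through 10 of its genes. They were the coactivators Yap1 and Wwtr1, the DNA-binding factors Tead1 and Tead4, their corepressor Vgll4, the kinases Lats1 and Lats2, and the target genes Ccn1, Ccn2 and Amotl2. A peak belonged to a gene where the deposited annotation named that gene as having the nearest transcription start. The rule gave 97 of the 56149 peaks in 8 lists, 4 for H3K27Ac and 4 for lamin A/C. H3K27Ac is an acetylated form of histone H3 that marks active promoters and enhancers, and lamin A/C is a protein of the nuclear lamina. Chromatin came from adult cardiomyocytes freed by perfusing hearts of 3-month-old mice with trypsin and collagenase D. The mice were Des+/+ or Des-/-, the latter lacking desmin, the intermediate filament protein of muscle, in every cell from the germline on. Cells were taken from mice that had not exercised (basal) or from mice that had swum (swim), and each genotype, condition and antibody gave 1 library made from chromatin of several mice.

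In the Hippo pathway, upstream kinases activate LATS1 and LATS2, which phosphorylate YAP and its relative TAZ, the product of Wwtr1, so that both stay in the cytoplasm. Unphosphorylated YAP and TAZ enter the nucleus and bind TEAD factors, for which VGLL4 competes, and switch on genes such as Ccn1, Ccn2 and Amotl2. The pathway restrains growth of the heart and responds to mechanical load and to the cytoskeleton. The comparisons asked whether active chromatin or lamina contacts at these genes differed with desmin and with swimming.

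A peak height is the number of reads that overlap at the peak, and the input height is the same number in chromatin sequenced without precipitation. Lists kept H3K27Ac peaks of at least 15 reads and lamin A/C peaks of at least 8 reads, so a missing peak was below that height or failed the false discovery rate. With 1 library a group there was no spread between replicates, no p-value is given, and 95% intervals, exact Poisson for a height and exact conditional binomial for a ratio, cover counting error only. The study's methods give 1 approximate read number for all samples and the lists hold no total per library, so depth could not be compared between libraries except through the heights. H3K27Ac peaks were named for the desmin gene in all 4 libraries, with a highest of 30 reads in Des+/+ and 46 in Des-/- at rest and 24 and 37 after swimming. The peak of 24 reads lay outside the gene, over which the highest in Des+/+ swim was 19. A peak covered the start in both Des-/- libraries, whereas those over the gene in Des+/+ began 29 bp (basal) and 69 bp (swim) inside it. The lists do not show which part of the gene is deleted, so this checks no label. Of 10 cardiomyocyte markers, 6 had a promoter peak in Des-/- swim and 9 in each other library, while Nppa had none in any. Values in a row of 4 are given here and below in the order Des+/+ basal, Des-/- basal, Des+/+ swim, Des-/- swim. Endothelial markers with a promoter peak numbered 6, 6, 4 and 4 of 6, with summed highest heights of 206, 197, 122 and 120 reads against 286, 277, 247 and 132 for the cardiomyocyte list. Fibroblast markers with one numbered 1, 2, 0 and 0 of 6, and the 5 smooth muscle and pericyte and 6 leukocyte markers had no H3K27Ac peak. The part of these other cells in the values below was not tested. In bulk chromatin, fewer cells carrying a mark and less of the mark per cell cannot be told apart.

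TEAD factors bind the word GGAATG, which reads as CATTCC on the opposite strand, and the start regions of the members are shown here because the pathway acts through that word. The RefSeq table of promoters (GRCm38.p6) held 7 of the 10 genes, with 9 starts, and Tead1, Tead4 and Ccn2 were not in it. In the 250 bases before the start, the TEAD word was found for 5 of the 7 genes, Yap1, Wwtr1, Ccn1, Amotl2 and Vgll4, and not for Lats1 or Lats2. Among all 32851 promoters of the table, 12.6% held it in the same window. The AP-1 word TGANTCA and the GATA word AGATAA, each searched on both strands, stood in none of the 9 starts, against 6.75% and 9.99% of all promoters. The TEAD word lay 141 bases before the start of Yap1, 103 before that of Ccn1, 65 before that of Amotl2 and 82 before that of Vgll4. Wwtr1 has 2 listed starts, and the same word lay 170 bases before one and 136 before the other. A word in a sequence is a description and not a bound site. The sequences run 5′ to 3′ on the strand of the gene, with the TEAD word in capitals. The Yap1 bases lie at chr9:8004597-8004846 on the minus strand and those of Ccn1 at chr3:145649986-145650235 on the minus strand, each the 250 bases before the start. For Wwtr1 (chr3:57576029-57576058, minus), Amotl2 (chr9:102717727-102717756, plus) and Vgll4 (chr6:114969268-114969297, minus) the 30 bases around the word are given.
Yap1 promoter: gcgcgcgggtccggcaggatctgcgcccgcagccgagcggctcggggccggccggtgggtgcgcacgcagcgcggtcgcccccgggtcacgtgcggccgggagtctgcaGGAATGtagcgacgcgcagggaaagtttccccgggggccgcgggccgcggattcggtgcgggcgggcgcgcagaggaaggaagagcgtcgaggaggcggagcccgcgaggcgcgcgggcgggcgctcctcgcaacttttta
Ccn1 promoter: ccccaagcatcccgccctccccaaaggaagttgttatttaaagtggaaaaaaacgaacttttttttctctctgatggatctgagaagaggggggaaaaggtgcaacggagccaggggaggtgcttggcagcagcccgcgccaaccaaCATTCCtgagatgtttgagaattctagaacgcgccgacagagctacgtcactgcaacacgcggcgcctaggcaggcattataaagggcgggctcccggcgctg
Wwtr1 site: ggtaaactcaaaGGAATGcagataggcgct
Amotl2 site: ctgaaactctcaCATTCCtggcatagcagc
Vgll4 site: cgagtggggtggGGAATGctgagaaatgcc
The Yap1, Ccn1, Wwtr1 and Amotl2 windows lay inside an H3K27Ac region of at least 1 library, whereas the listed Vgll4 start had no H3K27Ac peak in any library. The Amotl2 word falls in an annotated exon of a longer transcript that begins further upstream.

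The H3K27Ac lists named a member for 25 of 15757 peaks in Des+/+ and 30 of 16638 in Des-/- at rest, and for 22 of 11157 and 20 of 10407 after swimming. The share of the list was thus 0.159%, 0.18%, 0.197% and 0.192%. The number of member peaks after swimming was 88% of that at rest in Des+/+ and 66.7% in Des-/-, against 70.8% and 62.5% for the whole lists. A peak was listed for 8 of the 10 genes in Des-/- swim and for 9 in each other library. Ccn2 was the gene with none by the nearest-start rule, and Tead4 had none in Des-/- swim. Vgll4 held the most peaks in the Des+/+ libraries, and its numbers were 10, 7, 6 and 4. Wwtr1 had 4, 7, 2 and 6, so its count was higher in Des-/- in each condition, though many of its peaks were close to the list minimum. Lats1 had 1 peak in every library.

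**Figure D1:**
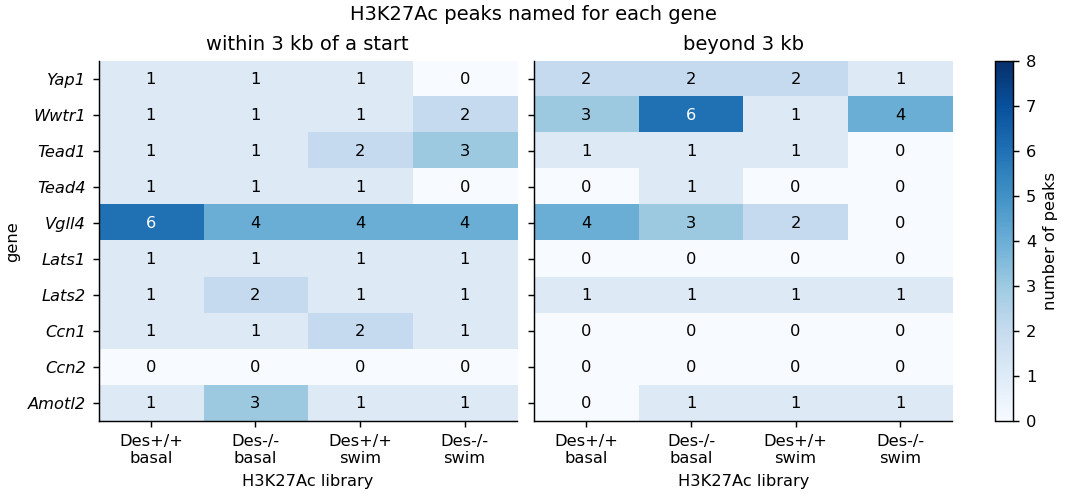
Number of H3K27Ac peaks named for each gene (vertical axis) in each of the 4 libraries (horizontal axis), at left within 3 kb of a transcription start and at right beyond 3 kb, with the count written in each cell. Vgll4 has 6, 4, 4 and 4 peaks near a start, Wwtr1 has 3, 6, 1 and 4 beyond 3 kb, and Yap1 and Tead4 have 0 near a start in Des-/- swim.

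Peaks of the 4 H3K27Ac lists that overlapped were joined into regions, and the members had 31 of the 18277 regions, 15 of them within 3 kb of a start. All 4 libraries listed 11 of the 31 (35.5%, against 37.7% of all regions), 6 were listed in 3 libraries, 5 in 2 and 9 in 1. The regions listed in 1 or 2 libraries were all low, at 15 to 19 reads. The highest height among regions listed in every library was 102 reads, at Lats2.

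**Figure D2:**
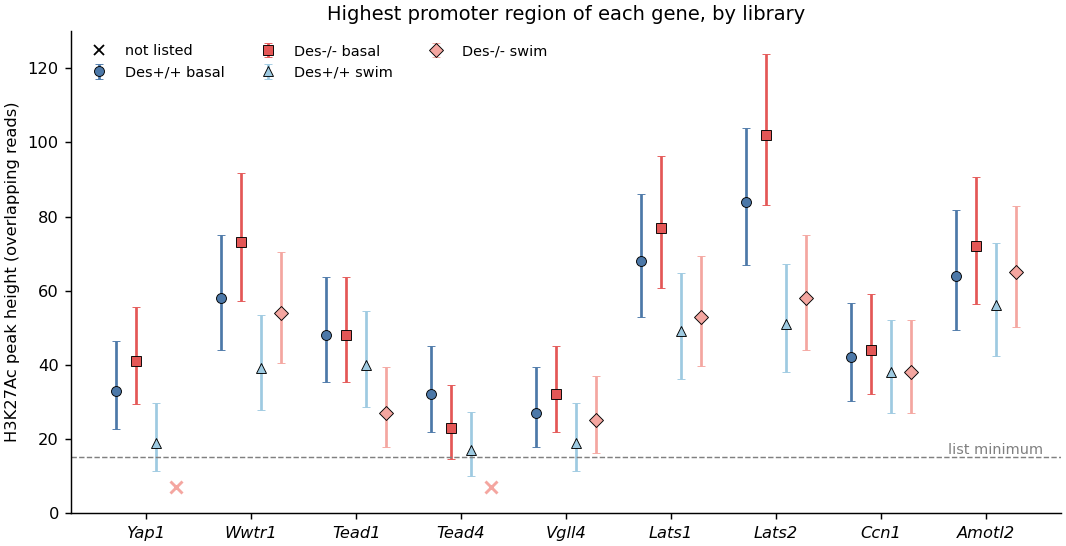
Height of the highest H3K27Ac promoter region of 9 genes in each library, in overlapping reads, with 95% Poisson intervals as bars, crosses for regions not listed, and a dashed line at the list minimum of 15 reads. Lats2 reaches 102 reads in Des-/- basal, whereas Yap1 and Tead4 stand at 33 and 32 reads at rest and 19 and 17 after swimming in Des+/+ and are not listed in Des-/- swim.

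Yap1, the coactivator that carries the signal of the pathway, had a promoter region at chr9:8003182-8005150 across its start. At rest its height was 33 reads (input 5) in Des+/+ and 41 (input 3) in Des-/-, and after swimming it was 19 (input 4) in Des+/+, with no peak listed in Des-/-. The Yap1 promoter was thus marked in both genotypes at rest and was low or missing after swimming. Relative to all regions, the height ratio was 1.17 (95% interval 0.724 to 1.92) for Des-/- against Des+/+ in the basal state and 0.78 (0.419 to 1.41) for swim against basal in Des+/+, and both intervals included 1. Of the 12 promoter regions of the members that were listed in the other 3 libraries, 3 (25%) were missing in Des-/- swim, at Yap1, Tead4 and Vgll4, where 15.1% of all such promoter regions were missing. The same count was 0 of 9 for the library of swum Des+/+ mice (13.3% of all), 0 of 9 for basal Des+/+ (0.807%) and 0 of 9 for basal Des-/- (0.345%). In Des-/- swim 6 of the 10 cardiomyocyte markers had a promoter peak against 9 in the others, and the part of this in the missing Yap1 peak was not tested. With so few promoters these shares are a description and set the members apart from no other genes. The genes most like Yap1 in promoter height over the 3 libraries, among 813 listed in those libraries alone, were Pkd1 (33, 38 and 19 reads), Myo1d (37, 43 and 19) and Ccdc117 (35, 37 and 18). Their distances from Yap1 were 0.11, 0.179 and 0.188 in log2 height.

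The highest region named for Yap1 was not its promoter. It lay about 13 kb upstream at chr9:8017542-8017906, in sequence the deposited annotation calls distal intergenic. Its height at rest was 65 reads (input 4) in Des+/+ and 70 (input 1) in Des-/-. After swimming it was 41 (input 2) in Des+/+ and 30 (input 2, 95% interval 20.2 to 42.8) in Des-/-. It was the only Yap1 peak listed in all 4 libraries and the only one left in Des-/- swim, where it stood lowest. Relative to all regions it was lower in Des-/- swim than in Des-/- basal, at a ratio of 0.571 (0.36 to 0.888), and lower than in Des+/+ swim, at 0.659 (0.397 to 1.08). Divided by input the latter became 1.07, with inputs of 2 reads in both libraries and a median over all regions, used as the scale, of 0.689. In Des+/+ the ratio of swim to basal was 0.855 (0.564 to 1.28). Des-/- swim against Des-/- basal was the one contrast whose counting interval excluded 1 at this region. The 4 contrasts gave intervals for 17, 12, 14 and 15 member regions, and they were not adjusted for that number. Some can exclude 1 by counting error alone. Whether the swim effect differed between genotypes was not shown, since the ratio of the ratios was 0.669 (approximate interval 0.375 to 1.19).

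The Yap1 upstream peak was also narrow, at 363, 351, 315 and 280 bp in the same order of libraries, where the median H3K27Ac peak was 892, 912, 812 and 828 bp wide. Among peaks of at most 400 bp it ranked 19 of 727 in Des-/- swim and was the highest of 881, 1029 and 801 in the other libraries, taken in the same order. This limit of width was chosen after its values were seen. Of the 31 member regions it was also the only one with another match in the genome of at least 90% identity over 150 bp, in sequence not masked as repeat. That match was upstream of Hspa8, the gene of the constitutive chaperone HSC70, at chr9:40800516-40800736, 32.8 Mb away on the same chromosome. The alignment covered 233 columns with 213 identical bases, 7 mismatches and 13 gap positions (91.4% identity), and in the Hspa8 copy it ended 248 bases before the start. Both sequences are shown because each lies under H3K27Ac, the Yap1 one as the Des-/- swim peak at chr9:8017605-8017884 on the plus strand and the Hspa8 one on the minus strand, with the bases that are identical in the alignment in capitals.
Yap1 upstream: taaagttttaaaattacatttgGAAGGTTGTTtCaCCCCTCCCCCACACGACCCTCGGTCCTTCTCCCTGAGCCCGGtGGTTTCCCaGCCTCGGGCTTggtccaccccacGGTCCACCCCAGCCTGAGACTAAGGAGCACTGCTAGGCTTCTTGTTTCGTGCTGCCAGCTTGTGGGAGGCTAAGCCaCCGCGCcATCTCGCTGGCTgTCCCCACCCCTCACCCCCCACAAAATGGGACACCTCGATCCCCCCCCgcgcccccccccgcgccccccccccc
Hspa8 upstream: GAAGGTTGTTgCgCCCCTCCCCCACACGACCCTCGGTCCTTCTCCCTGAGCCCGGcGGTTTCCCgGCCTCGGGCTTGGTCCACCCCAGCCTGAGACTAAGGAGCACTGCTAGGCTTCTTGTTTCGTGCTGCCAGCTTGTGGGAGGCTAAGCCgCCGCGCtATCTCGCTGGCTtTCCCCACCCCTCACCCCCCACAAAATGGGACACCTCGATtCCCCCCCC
Neither sequence held the TEAD, AP-1 or GATA word on either strand. The H3K27Ac region over the Hspa8 copy was 139, 128, 93 and 92 reads high in the same order of libraries, and the Yap1 upstream region had 46.8%, 54.7%, 44.1% and 32.6% of that height. The Hspa8 summit lay 139, 153, 153 and 166 bp outside the copy, so its heights were not taken at the copied bases. The scaled ratio of Hspa8 was 0.958 (0.725 to 1.26) for swim against basal in Des-/-, where that of the Yap1 region was 0.571. The part of reads from the Hspa8 copy in the Yap1 upstream height was not tested.

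**Figure D3:**
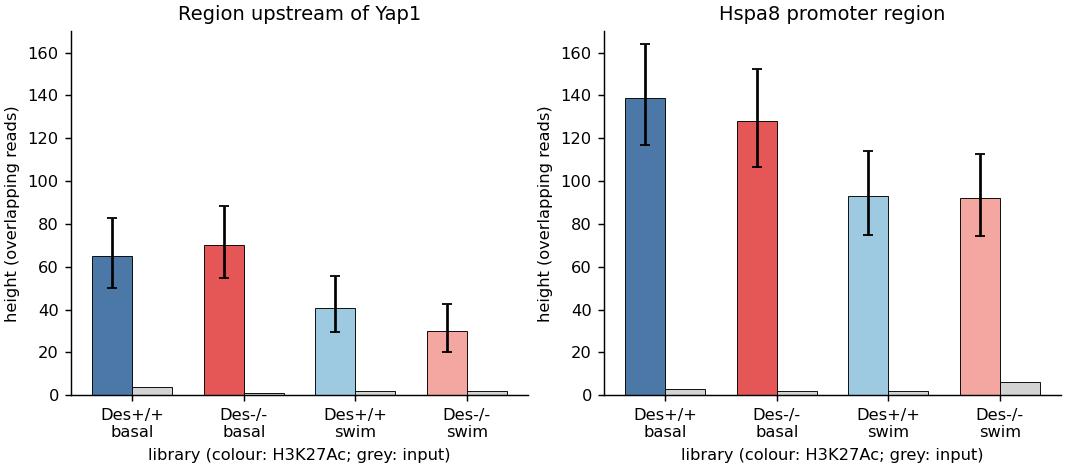
Height in overlapping reads of the H3K27Ac region upstream of Yap1 (left) and of the Hspa8 promoter region that holds its other copy (right) in each library, with 95% Poisson intervals, and the input height in grey. After swimming both are lower in reads, at 41 and 30 against 65 and 70 at Yap1 and at 93 and 92 against 139 and 128 at Hspa8, while inputs stay between 1 and 6.

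Wwtr1, which encodes the coactivator TAZ, had a promoter region at chr3:57573492-57577144. Its height was 58 reads (input 3) in Des+/+ and 73 (input 2) in Des-/- at rest, and 39 (input 2) and 54 (input 7) after swimming. It stayed marked in every library, and it was higher in Des-/- than in Des+/+ in each condition. The scaled ratios of 1.19 (0.831 to 1.71) at rest and 1.25 (0.81 to 1.93) after swimming did not exceed counting error. The other Wwtr1 regions were all in its intron 2, 30.7 to 70 kb from the start. The highest of them, at chr3:57540484-57542042, was 27 reads high in Des+/+ and 24 in Des-/- at rest, 19 in Des-/- after swimming, and not listed in Des+/+ swim. The 3 others reached 15 to 19 reads. Both Des-/- libraries listed all 4 intronic regions, while those of Des+/+ listed 3 at rest and 1 after swimming.

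**Figure D4:**
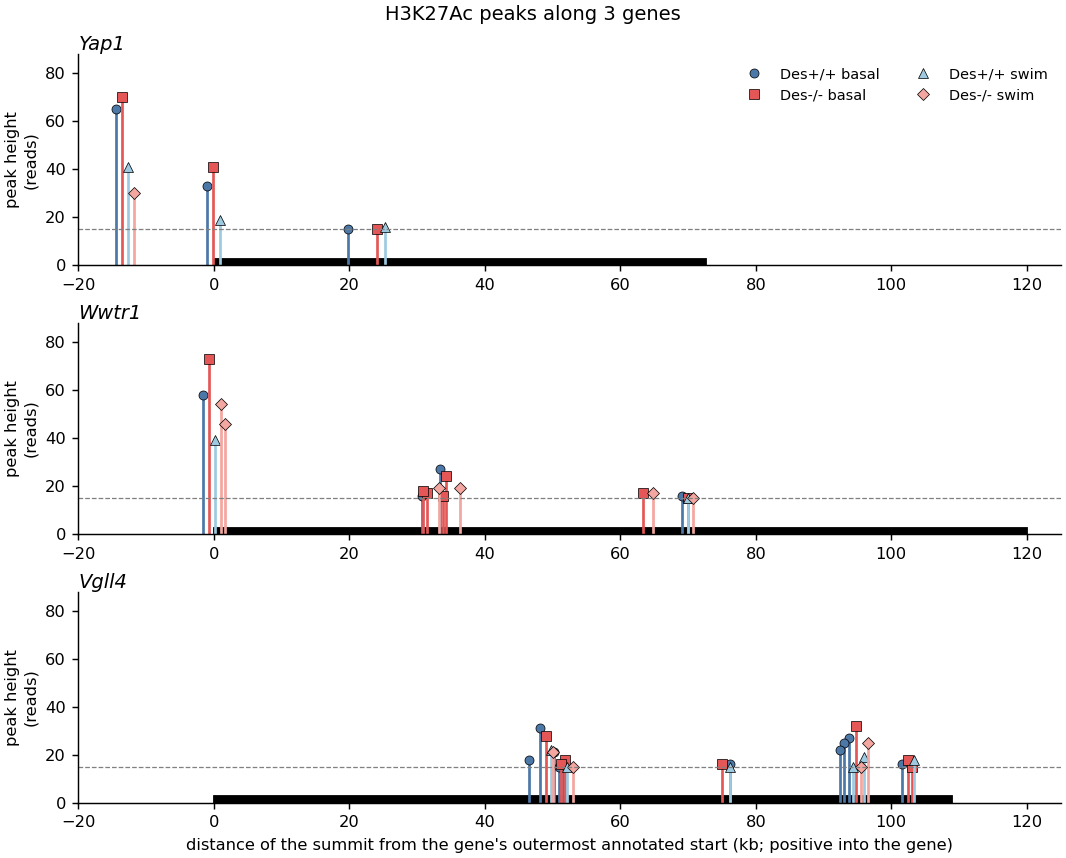
Height of every H3K27Ac peak of Yap1, Wwtr1 and Vgll4 (vertical axis, overlapping reads) against the distance of its summit from the outermost annotated start of the gene in kb (horizontal axis, positive into the gene, black bar for the gene), with the 4 libraries set slightly apart sideways and a dashed line at 15 reads. The tallest Yap1 peaks stand upstream of the gene, those of Wwtr1 at the start, and those of Vgll4 at starts inside the gene.

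Tead1, which encodes a TEAD factor found in heart muscle, had its highest region at its promoter (chr7:112678303-112681500). The height at rest was 48 reads in Des+/+ (input 3) and in Des-/- (input 4), and after swimming it was 40 (input 3) in Des+/+ and 27 (input 10) in Des-/-. The last of these was the lowest, and its input was the highest. There the region was split into peaks of 26 reads just before the outermost start of the gene, 27 just inside the gene and 15 in intron 1. The scaled ratio of Des-/- to Des+/+ after swimming was 0.608 (0.359 to 1.01), past the 1.5-fold limit used here but within counting error. At rest it was 0.944 (0.62 to 1.44). Divided by input, the ratio after swimming became 0.36, with inputs of 3 reads in Des+/+ and 10 in Des-/-. Low peaks of 15 reads stood in intron 1 in the basal libraries, with summits 17710 bp into the gene in Des+/+ and 18138 bp in Des-/-, and a peak of 19 reads lay 18.3 kb upstream in Des+/+ swim. A peak further inside Tead1, 193 to 194 kb from its start and named for the nearer start of Rassf10, was 17 reads high in Des+/+ and 15 in Des-/- at rest, 20 in Des+/+ after swimming, and not listed in Des-/- swim.

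Tead4, another TEAD gene, had a promoter region at chr6:128300040-128301313 of 32 reads (input 3) in Des+/+ and 23 (input 4) in Des-/- at rest. After swimming it was 17 reads high (input 3) in Des+/+, and no peak was listed in Des-/-. The heights descended in that order, but the scaled ratios of 0.679 (0.379 to 1.2) for Des-/- against Des+/+ at rest and 0.72 (0.375 to 1.34) for swim against basal in Des+/+ were within counting error. An intronic peak of 19 reads was listed in Des-/- basal only.

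Vgll4, the corepressor that displaces YAP from TEAD factors, carried its mark at starts inside the gene and had no peak at the outermost one. One start region, at chr6:114873674-114876625, was 27, 32, 19 and 25 reads high over the 4 libraries in their usual order. The other, at chr6:114919643-114922252, was 31, 28, 22 and 21 reads high. Both were listed in all 4 libraries, and none of their scaled ratios left the range 0.853 to 1.18. A neighbouring region at chr6:114916397-114918857 was 15 to 21 reads high in all libraries. The region at chr6:114866859-114867664, 2.1 kb from a start, had 16 reads in Des+/+ and 18 in Des-/- at rest, 18 in Des+/+ after swimming, and no peak in Des-/- swim. Its scaled ratio of swim to basal in Des+/+ was 1.52 (0.734 to 3.19), which passed 1.5-fold on a difference of 2 reads. The remaining Vgll4 regions had 15 or 16 reads.

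The kinase genes carried the highest member promoters at rest. Lats1, at chr10:7680355-7682466, was then 68 reads high (input 5) in Des+/+ and 77 (input 5) in Des-/-, and 49 (input 3) and 53 (input 11) after swimming. Lats2, at chr14:57744807-57746954, was 84 (input 4) and 102 (input 4) reads high at rest and 51 (input 4) and 58 (input 11) after swimming. Both were higher at rest than after swimming by number of reads, but so were the lists, whose median swim to basal ratio over all regions was 0.738 in Des+/+ and 0.75 in Des-/-. Relative to that shift Lats1 had ratios of 0.976 (0.662 to 1.43) and 0.918 (0.634 to 1.32), and Lats2 of 0.823 (0.569 to 1.18) and 0.758 (0.54 to 1.06). A further start of Lats2 was marked only in Des-/- basal, at 15 reads. An intronic Lats2 region at chr14:57707114-57708005 had 24 reads in Des-/- at rest, and 15 in Des+/+ and 17 in Des-/- after swimming, and was not listed in Des+/+ basal. The 250 bases before the marked Lats2 start held 31 CG pairs, those before the other start 4, and the median promoter 6.

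Among the target genes, Ccn1, which encodes a secreted matricellular protein, had 1 wide region at chr3:145648326-145653927. Its height was 42 reads (input 3) in Des+/+ and 44 (input 3) in Des-/- at rest and 38 in both genotypes after swimming (inputs 4 and 3). The heights were close to each other, and the scaled ratios of swim to basal were 1.23 (0.769 to 1.95) and 1.15 (0.726 to 1.82). The summit lay elsewhere after swimming, so these ratios compare heights at different places of the region. At rest it was 216 bp inside the gene in Des+/+ and 257 bp in Des-/-, whereas in Des-/- swim it was 3215 bp upstream of the start. In Des+/+ swim the region was split into a peak of 28 reads over the start and one of 38 reads whose summit was 3242 bp upstream. The interval of the ratio of these heights ran from 0.811 to 2.3, so which of them is higher was within counting error, and the lists give only the highest point of each peak.

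Ccn2, the target gene that encodes connective tissue growth factor, had no peak under its own name, yet peaks lay over or just inside its start. These peaks were named for Gm15270, a transcript annotated across the same place. They were 24 reads high in Des+/+ (input 4) and in Des-/- (input 7) at rest and 16 (input 4) in Des+/+ after swimming. No peak was listed there in Des-/- swim. The joined region spans chr10:24594678-24597195 and holds the start of Ccn2 (24595442), although the Des+/+ basal peak began at 24595482, just inside the gene. A further peak of 15 reads lay over the gene in Des-/- basal. The scaled ratio was 0.944 (0.514 to 1.74) for Des-/- against Des+/+ at rest and 0.903 (0.448 to 1.77) for swim against basal in Des+/+. The region at the Ccn2 start was thus listed in the same 3 libraries as the Yap1 and Tead4 promoters.

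Amotl2, a target gene whose product binds YAP at cell junctions, had a promoter region at chr9:102717086-102719671. It was 64 reads high (input 5) in Des+/+ and 72 (input 3) in Des-/- at rest, and 56 (input 4) and 65 (input 12) after swimming. It was the highest member promoter in both swim libraries, with scaled swim to basal ratios of 1.19 (0.813 to 1.72) in Des+/+ and 1.2 (0.847 to 1.71) in Des-/-. Its input of 12 reads in Des-/- swim was the highest at any member peak, where the input reached 5, 5, 6 and 12 reads in the 4 libraries with a median of 3 in each. Over all peaks of the lists the median input was 3, 3, 3 and 5 reads. In Des-/- swim the input was also 11 at the Lats1 and Lats2 promoters, 10 at Tead1 and 7 at Wwtr1, but 1 to 4 at Ccn1 and the Vgll4 start regions. The part of this higher input in the Des-/- swim heights was not tested. The 3 other Amotl2 regions were 15 to 18 reads high and each was listed in 1 or 2 libraries.

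Compared between genotypes at rest, 29 member regions were listed in either library. Of these, 3 were listed only in Des+/+ basal (12.6% of all regions) and 9 only in Des-/- basal (18.2%). The 9 were spread over Yap1, Wwtr1, Tead4, Vgll4, Lats2 and Amotl2, and 8 of them were below 20 reads. With a minimum of 20 reads the counts were 1 and 1 of 14. Among the 17 listed in both, 0 were at least 1.5-fold higher in Des-/- (2.9% of all) and 0 at least 1.5-fold lower (3.03%), and the median log2 ratio was 0.02. After swimming, 7 of 23 were listed only in Des+/+ (21.8% of all) and 4 only in Des-/- (16.7%). The 7 were the Yap1 and Tead4 promoters, the Vgll4 region 2.1 kb from a start, and a low region each at Yap1, Tead1, Vgll4 and Amotl2, none above 19 reads. Of the 4, Wwtr1 had 3 and Amotl2 had 1. In both libraries 12 were listed, of which 0 were higher (3.51%) and 2 lower in Des-/- (4.23%), at Tead1 and upstream of Yap1, with a median log2 ratio of -0.1. Divided by input, 6 of 17 were higher (16.8% of all) and 2 lower (15.5%) at rest, and 3 of 12 higher (19.4%) and 3 lower (18.1%) after swimming.

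Swimming against the basal state in Des+/+ left 25 member regions in either library, 6 listed only in basal (36.4% of all) and 5 only in swim (5.58%). The 5 were at Yap1, Tead1, Vgll4, Lats2 and Amotl2, all beyond 3 kb from a start and 15 to 19 reads high, and with a minimum of 20 reads 0 remained. The 6 were at Yap1, Wwtr1, Tead1, Vgll4 and Lats2, and only the Wwtr1 intron region of 27 reads was above 17. Of 14 regions in both, 1 was higher (5.04%), at Vgll4, and 0 were lower (3.82%), with a median log2 ratio of -0.05. A region needed at least 15 reads in both libraries to be compared. One that was low at rest, such as that of Vgll4, could therefore be called higher but not lower. In Des-/-, 11 of 27 were listed only in basal (42.9%) and 1 only in swim (3.7%), and of 15 in both 0 were higher (4.81%) and 1 was lower (3.13%), upstream of Yap1, with a median of 0.06. The 11 were led by the promoters of Yap1 (41 reads in Des-/- basal) and Tead4 (23), and the other 9 were 15 to 19 reads high. Divided by input, 2 of 14 were higher (17.8% of all) and 0 lower (18.5%) in Des+/+, and 7 of 15 higher (24.0%) and 5 lower (20.8%) in Des-/-, where inputs under the members reached 12 reads in swim and 5 at rest. The genotype and swimming contrasts share libraries and are not independent.

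**Figure D5:**
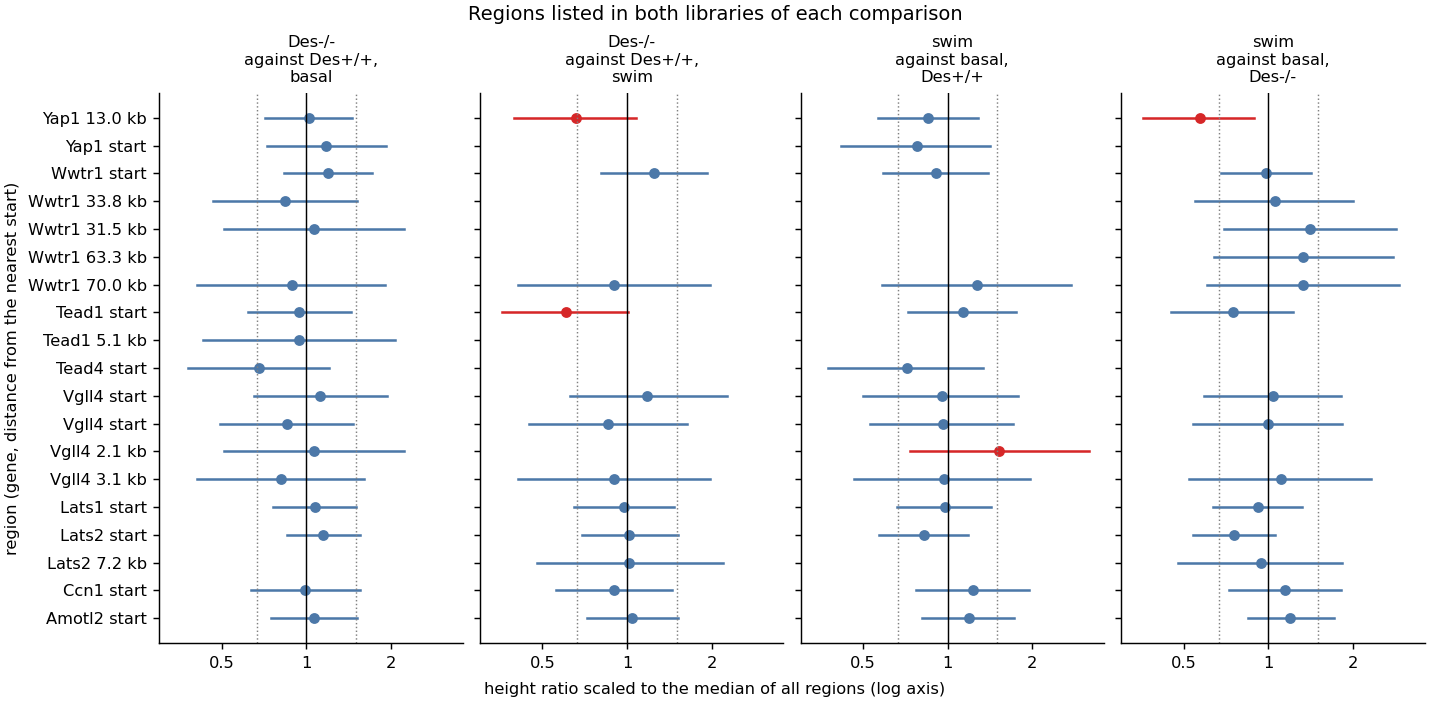
Height ratio of each member region listed in both libraries of a comparison (horizontal axis, log scale, scaled so that the median of all regions is 1), with 95% exact intervals for counting error and dotted lines at 1.5-fold in each direction. Regions past 1.5-fold are red. They are the Yap1 upstream region (0.659 and 0.571), the Tead1 start (0.608) and a Vgll4 region (1.52), and the interval excludes 1 only for Yap1 in Des-/-. Intervals are not adjusted for the number of regions, which is 17, 12, 14 and 15 from left to right.

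No lamin A/C peak was named for any of the 10 genes, among 188 peaks in Des+/+ and 831 in Des-/- at rest and 635 and 536 after swimming. None lay over a gene body of the members either. The paper reports low read counts for this antibody, and how many of all genes these short lists name was not counted. The lack of a peak therefore sets the members apart from no other genes and does not show a lack of lamina contact. The nearest lamin A/C peak to a member was 229 kb from Ccn1, and the median distance was 4320 kb. Among the other genes of the pathway, lamin A/C peaks were listed at Stk3 (9 reads), Csnk1e (8 reads) and Vgll3 (8 reads), each in Des-/- basal only, at or close to the list minimum.

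The other genes of the pathway were described from lists chosen by their known roles. Of 16 genes of the kinase module and its upstream regulators, 13 had an H3K27Ac peak in some library, led by Rassf1 (107, 103, 63 and 96 reads), a scaffold of the MST kinases, Frmd6 (72, 95, 63 and 64) and Wwc2 (76, 60, 47 and 48). Mob1a, Wwc1 and Taok3 had none. Of 20 YAP-binding and junction proteins 18 had a peak, led by Ywhaz (113, 126, 78 and 89 reads) and Ywhae (74, 86, 52 and 53), which encode 14-3-3 proteins that hold phosphorylated YAP, and by the kinase gene Csnk1d (76, 96, 56 and 90), while Amot and Scrib had none. Of the 5 other TEAD and VGLL genes only Tead3 had a peak, of 20, 35 and 15 reads and none listed in Des-/- swim, whereas Tead2, Vgll1, Vgll2 and Vgll3 had no H3K27Ac peak. A list of 18 further YAP target genes followed. A peak was listed for 6, 11, 7 and 4 of them. Asap1 (27, 34, 31 and 30 reads) and Ptpn14 (30, 29, 24 and 18), which also stands in the junction list, were marked in every library, and Crim1 (36, 24 and 22) in all but Des-/- swim. Ankrd1, a target expressed in cardiomyocytes, had 21, 15 and 20 reads and no peak in Des-/- swim, and Myof, Igfbp3, Fjx1, Foxf2, Ccdc80 and Dock5 had none in any library. In the basal state 3 of 32 target regions were listed only in Des+/+ (12.6% of all regions) and 15 only in Des-/- (18.2%), and after swimming 6 (21.8%) and 3 (16.7%) of 15. These counts were not tested. Target genes with a peak at rest only in Des-/- were low there. Gadd45a reached 23 reads, and Axl, Arhgef17, Nuak2 and Tgfb2 reached 15 to 18, near the list minimum. Of target regions listed in both libraries, 0 were higher (2.9% of all) and 1 lower (3.03%) of 14 at rest, and 0 (3.51%) and 0 (4.23%) of 6 after swimming. With swimming, 10 target regions were listed only at rest (36.4% of all) and 5 only in swim (5.58%) of 22 in Des+/+, and 22 (42.9%) and 2 (3.7%) of 31 in Des-/-. Against the same shares of all regions, kinase regions listed only in Des+/+ and only in Des-/- numbered 0 and 1 of 20 at rest and 5 and 0 of 18 after swimming, and those of the YAP-binding and junction list 8 and 9 of 41 and 5 and 5 of 22. Kinase regions listed only at rest and only in swim numbered 3 and 2 of 21 in Des+/+ and 7 and 0 of 20 in Des-/-, and junction regions 18 and 3 of 35 and 16 and 0 of 33.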

How the data were processed

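The 8 peak lists were deposited by the authors, who aligned single-end reads to the mouse genome build GRCm38 (mm10), called peaks in each library against its input with their own script and kept peaks at a false discovery rate below 0.001. The submitters' processing notes name Bowtie2 2.4.4, SAMtools 1.13 and ChIPseeker 1.36.0. Heights were deposited as a signal, counting the reads piled up over a position, with no scaling for depth stated. Handling of duplicates, read extension and input scaling was not given in the sources used here. The distance to the nearest start is a signed score in bp that the authors took from the annotation.

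Peaks of the 4 H3K27Ac lists were joined where they shared at least 1 bp, and the highest peak stood for a region in each library. Height ratios were divided by the median ratio of all regions listed in both libraries, which was 1.06 and 1.11 for Des-/- against Des+/+ at rest and after swimming. Called regions passed 1.5-fold. A ratio needed at least 15 reads in both libraries. A region close to that height in the library compared against could therefore be called higher but not lower. Intervals are exact Poisson intervals for heights and exact conditional binomial intervals for ratios. At the minimum of 15 reads the interval runs from 8.4 to 24.7. The ratio step was tested on simulated lists whose heights were set well above the deposited ones and whose planted changes were larger than 1.5-fold. That test therefore does not show how well 1.5-fold calls hold at the heights of these data. Copies were searched with BLAST+ 2.17.0, and values were computed with Python 3.11.15, pandas 2.3.3 and scipy 1.17.1. Sequences are from RefSeq, GRCm38.p6.

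The text names all members, the 3 highest genes of each pathway list and its genes without a peak, and the 3 genes nearest to Yap1 in promoter height. Member regions that reached 20 reads are given in full and lower ones mostly by range. Ankrd1, the genes with a lamin A/C peak and the target genes with a peak at rest only in Des-/- were added after their values were seen. The members and lists were chosen with earlier results of these data known. The 8 input samples entered only as input heights. Alternatives were a minimum of 20 reads (16 for lamin A/C), no scaling, fold enrichment over input, a 2-fold limit, joining at 50% overlap, peaks taken by gene body, and leaving out the region upstream of Yap1.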

Additional observations from a re-analysis of the deposited data

Results flagged for a closer look

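Relative to all regions, the Tead1 promoter region moved in opposite directions with swimming in the 2 genotypes, whereas in reads it was lower after swimming in both, at unscaled ratios of 0.833 and 0.562. Its scaled ratio of swim to basal was above 1 in Des+/+ (interval 0.723 to 1.75) and 0.75 (0.45 to 1.23) in Des-/-, and the ratio of the ratios was 0.664 (approximate interval 0.353 to 1.25). Regions of Vgll4 with opposite directions had ratios of the ratios of 1.09 and 1.15, within 1.5-fold. With 1 library a group this difference was not tested across animals, and the counting interval included 1. Both intervals of the single ratios also included 1.

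Peaks over or just inside the start of Ccn2 were given by the annotation to another gene, Gm15270, and the rule by nearest start therefore left them out. They were 24 reads high in Des+/+ and 24 in Des-/- at rest, and 16 after swimming in Des+/+, above the input heights of 4, 7 and 4 reads.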

How the results depend on the processing

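No paired analysis was possible because each group had 1 library and the labels carry no replicate numbers, and leaving out a replicate was not possible for the same reason. Of 168 values recomputed under the alternatives, 132 stayed within the tolerance, 35 moved past it and 1 ratio past 1.5-fold changed direction. The tolerance was 1.5 times for a count and the 95% counting interval for a ratio. For a median it was a 95% interval from the ranked ratios of the member regions, which reflects spread between regions and not between animals. Of 32 ratios of the Yap1 upstream and Tead1 promoter regions 3 turned direction, and of 24 median log2 ratios 4, 2 without scaling and 2 with fold enrichment over input. With a minimum height of 20 reads the members had 15, 14, 9 and 11 peaks, regions listed only in Des+/+ and only in Des-/- became 1 and 1 at rest and 0 and 1 after swimming, those listed only in swim and those higher in Des+/+ became 0 and 0, and in Des-/- those only at rest became 4 and those only in swim 0. Without scaling, the median log2 ratio was 0.11 between genotypes at rest, -0.49 for swimming in Des+/+ and -0.36 in Des-/-. The calls without scaling were 0 lower between genotypes after swimming, 0 higher and 4 lower for swimming in Des+/+, and 3 lower in Des-/-. With fold enrichment over input, 6 regions were higher and 2 lower between genotypes at rest (median 0.14), 3 higher and 3 lower after swimming, 2 higher and 0 lower for swimming in Des+/+, and 7 higher and 5 lower in Des-/- (median 0.55). On that scale the Yap1 upstream ratio was 2.44 between genotypes at rest, 1.07 after swimming and 1.41 for swimming in Des+/+, the last 2 of which reversed its direction. Inputs of 1 to 4 reads at the Yap1 upstream region entered these values. With fold enrichment over input the Tead1 promoter ratio was 0.726 between genotypes at rest and 0.36 after swimming. For swimming it was 1.12 in Des+/+ and 0.569 in Des-/-. The Tead1 ratio for swimming in Des+/+ turned to 0.833 without scaling. With a 2-fold limit the counts were 0 lower between genotypes after swimming, 0 higher for swimming in Des+/+ and 0 lower in Des-/-. Joining at 50% overlap left 2 regions listed only in swim in Des-/-. Leaving out the region upstream of Yap1, an alternative chosen after seeing the data, left 1 lower between genotypes after swimming and 0 lower for swimming in Des-/-. Heights near 15 reads carry a wide counting interval, so presence or absence at that level was not detectable as a difference at this depth.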

Other observations

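The 300 bases around the summit of each member region were searched for the same words as the promoters. The TEAD word lay in 1 of 15 promoter regions, at Wwtr1, and in 4 of 16 regions beyond 3 kb, against 10.8% and 17.2% of all regions of each kind. The 4 were 2 low regions of Tead1 and 1 each of Tead4 and Amotl2, all between 15 and 19 reads high. The AP-1 word lay in 1 of 15 and 3 of 16 (4.31% and 8.85% of all), and the GATA word in 1 of 15 and 2 of 16 (5.23% and 13.5%). At Ccn1, Yap1 and Amotl2 the TEAD word of the promoter was outside the summit window. A peak of 15 reads inside Wwtr1 in Des-/- swim was named for Tm4sf4, 105 kb from the Wwtr1 start.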
